A study of Mus musculus with 9 samples.

Results

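The histone cluster genes are the genes that encode the replication-dependent histones and that sit together in gene clusters. They were taken as every gene whose symbol begins with Hist1h, Hist2h, Hist3h or Hist4h in the deposited count tables, which gave 68 members among 24411 gene rows. The libraries came from primary microglia of ICR mice, an outbred strain. The cells were obtained from mixed glial cultures of whole brains of 3-day-old pups that had been grown for 2 weeks and then shaken to release microglia. After plating for 24 h, the cells received 1 µM R848, 100 U/ml IFN-α or both agents together at these doses, each for 4 h, with 3 libraries per group. In mice R848 (resiquimod), a synthetic small molecule, activates the endosomal sensor TLR7, while IFN-α belongs to the type I interferons. All groups had received at least 1 agent, so every difference below is between treatments and none is against untreated cells.

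A nucleosome is DNA wrapped around a core of histones H2A, H2B, H3 and H4, and the linker histone H1 binds where the DNA enters and leaves it. The cluster genes are short, mostly without introns, and are transcribed chiefly in S phase, when new DNA has to be packaged. Their mRNAs end, as a rule, not in a poly(A) tail but in a conserved stem-loop that is bound by the stem-loop binding protein, Slbp, and cut from the precursor with the help of the U7 small nuclear ribonucleoprotein. Some cluster genes also give polyadenylated transcripts in cells that have stopped dividing. The replacement histones, such as those encoded by H3f3a and H3f3b, lie outside the clusters and are made throughout the cell cycle. Libraries depleted of ribosomal RNA, as here, hold transcripts with and without a poly(A) tail, so both kinds of histone mRNA could be counted.

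Of the 68 members, 6 encode H1, 18 H2A, 19 H2B, 12 H3 and 13 H4, and 67 are annotated as protein-coding, the other being the pseudogene Hist3h2bb-ps. On GRCm38 (mm10), as annotated in GENCODE release 21, 54 members form the Hist1 cluster at chr13:21715763-23934851, a span of 2.22 Mb. The Hist2 cluster holds 10 members at chr3:96219865-96270132, the Hist3 cluster 3 at chr11:58948920-58956830, and Hist4h4 stands alone at chr6:136801553-136804415.

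The stem-loop is the sequence feature that defines this class of mRNA, and it is shown here for members whose values are described below. A search for the conserved histone stem-loop of 16 bases after the stop codon, on the transcript strand and with its variable positions left free, found it in 46 of the 68 members, 21 to 58 bases after the stop codon with a median of 31. Among the 31 members with at least 100 bases annotated after the stop codon, 27 held it within the first 100 bases. Of 19894 other coding genes with that much annotated sequence, 43 held it, or 0.216%, and H2afx, a replacement histone known to use the same ending, was one of them. The 17 members with fewer than 50 bases annotated after the stop codon showed no match, which says only that these letters are not in the annotated transcript. The most frequent form, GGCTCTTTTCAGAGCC, was found in 26 members. In the following stretches, written 5′ to 3′ as DNA from the GENCODE transcripts, the stem-loop is in capitals with 5 flanking bases on each side, and the coordinates are those of the capitals on GRCm38.
Hist3h2a (chr11:58955172-58955187, + strand): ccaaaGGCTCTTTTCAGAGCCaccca
Hist1h1c (chr13:23739512-23739527, + strand): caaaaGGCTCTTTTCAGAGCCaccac
Hist1h4d (chr13:23581950-23581965, + strand): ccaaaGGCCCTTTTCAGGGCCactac
Hist1h4c (chr13:23698089-23698104, − strand): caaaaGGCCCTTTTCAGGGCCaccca
Hist2h2ac (chr3:96220418-96220433, − strand): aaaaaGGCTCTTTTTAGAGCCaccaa
Hist2h4 (chr3:96262939-96262954, − strand): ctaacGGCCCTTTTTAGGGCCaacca

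The stretches of Hist1h2be (chr13:23585531-23585546, − strand) and Hist1h1e (chr13:23621782-23621797, − strand) had the same 26 letters as that of Hist3h2a. In several members the annotated transcript runs on well past the stem-loop, by 1643 bases in Hist3h2a, 1861 in Hist1h2be, 1153 in Hist1h1e, 840 in Hist1h1c, 770 in Hist1h4d and 1257 in Hist2h4, against 57 in Hist2h2ac. Counts per gene cannot separate transcripts that end at the stem-loop from longer ones.

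The promoters of the members also share letters. In the RefSeq windows of 300 bases, from 250 before to 50 after the start on GRCm38.p6, 62 promoters were found for 61 members and were searched on both strands. CCAAT, the box bound by NF-Y, was present in 85.5% of them and in 37.4% of all 32851 RefSeq windows. TATAAA, the TATA box, was present in 56.5% and 13.6%. The octamer ATTTGCAT, which is bound by Oct-1 (encoded by Pou2f1) and is known from H2B promoters, was present in 22.6% and 1.7%. Each motif was counted on its own, and the end letters of 1 match may belong to another as well. The families differed in them: CCAAT was in every H1, H2A, H2B and H3 promoter but in 25.0% of H4 promoters, and the octamer was in 41.2% of H2A and 41.2% of H2B promoters and in no H1, H3 or H4 promoter. Windows of neighbouring H2A and H2B genes on opposite strands can overlap, so 1 site can be counted in both families. The octamer of Hist1h2ae and Hist1h2bg is such a site, and these shares are not shares of separate sites. A match describes the letters and is not a shown binding site.

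Many members come in pairs that are transcribed away from each other, and 13 such pairs start within 500 bases of each other. One of them, Hist2h2ac and Hist2h2be, is 238 bases apart, and its members are compared below. The RefSeq promoter window of Hist2h2ac at chr3:96220831-96221130, − strand, spans the sequence between them and is printed with matches of the 3 motifs on either strand in capitals.
Hist2h2ac promoter: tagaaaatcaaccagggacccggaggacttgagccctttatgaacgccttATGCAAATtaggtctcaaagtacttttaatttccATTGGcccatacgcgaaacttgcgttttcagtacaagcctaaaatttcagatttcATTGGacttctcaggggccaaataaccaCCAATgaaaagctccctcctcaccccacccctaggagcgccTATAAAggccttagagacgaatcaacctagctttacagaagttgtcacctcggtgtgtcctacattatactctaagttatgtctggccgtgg

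Gene counts on the transcribed strand ranged from 2505941 to 6005578 per library, replicate 3 of the combined group being the deepest, and the histone members held 0.0472% to 0.0787% of them, 16919 counts in all. The ribosomal transcript Rn45s held 13.3% to 26.1% of gene counts. All 14 microglial marker genes on a list were detected in every group, with summed levels of 3800 to 4310 CPM (the gene count relative to the library total, which was scaled with TMM factors) in the R848 libraries, 6030 to 6370 CPM with IFN-α and 4330 to 4860 CPM with both. The libraries also held the 10 listed astrocyte markers, none at 0 in any group, with summed levels of 1450 to 1710, 1150 to 1460 and 2390 to 3440 CPM in the same order. Of these astrocyte markers, 9 were called higher and 0 lower with both agents than with R848, 5 and 0 with both than with IFN-α, and 2 and 3 with R848 than with IFN-α. The first of these counts depended on scaling, and was 3 with library totals alone. Gfap was at 897 ± 42.2, 750 ± 150 and 1420 ± 363 CPM and Aqp4 at 494 ± 123, 280 ± 16 and 1050 ± 157 CPM (mean ± SD, n = 3) with R848, IFN-α and both. Of the microglial markers, 1 was higher and 8 lower with R848 than with IFN-α. With both, 6 were higher and 4 lower than with R848, and 1 and 9 than with IFN-α. P2ry12 and C1qb were lower in the first, higher in the second and lower in the last of these comparisons. Aif1 was lower in the first, higher in the second and not called in the last. Trem2 was lower in the first and the last, and Tmem119 in the second and the last. Tmem119 was at 0.374, 0 and 0.804 CPM in the combined libraries, under the level of the low-count filter, 3.51 CPM. P2ry12 was also under it in the R848 libraries, at 2.6, 2.85 and 1.78 CPM. Both genes thus entered the test through the groups where they were higher. Of 9 oligodendrocyte markers the counts were 0 and 3, 1 and 0, and 0 and 2 (Cnp, Mog, Sox10), of 4 neuronal markers 1 and 1, 1 and 0, and 1 and 0 (Stmn2, Dcx, Map2), and of 7 fibroblast markers 2 and 0, 2 and 0, and 3 and 0 (Pdgfrb, Dcn, Col1a2, Postn, Lum). Summed levels of these 3 lists ran from 498 to 757, 137 to 176 and 106 to 248 CPM over the libraries. Totals of 1 or 2 calls in these 3 lists became 0 to 4 when single libraries were left out. Over all genes tested, 37.4% were called between R848 and IFN-α, 35.9% between both and R848, and 33.2% between both and IFN-α. The part of other cells in the histone values was not tested. In such bulk RNA, fewer cells of a type and less RNA per cell cannot be told apart.

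The counts of members are set here beside how much of their sequence is unique. STAR, the aligner named in the submitters' processing notes, leaves reads that map to several places out of its gene counts, and multi-mapping read pairs made up 7.22% to 8.51% per library. For each member, the share of 101-base windows (the read length) that occur in no other annotated transcript was computed, leaving out genes that overlap the member. That share had a median of 77.15% in the 40 members that passed the low-count filter and were tested, 41% in the 28 that were not, and 9.9% in the 10 that had no count in any library. Across the 68 members the share and the total count had a Spearman rho of 0.44, given as a description, since members of a family share their sequence. Of 12 members with under 20% unique windows 3 were tested, and of 26 with 80% or more 19 were tested. The 3 were Hist1h3h with 8% unique windows, Hist1h2ai with 11.6% and Hist1h4n with 19.4%. Hist2h3c1, at 0 counts, had 67.2%, but its annotated transcript runs 1167 bases past the stem-loop and holds 1159 unique windows. Its share therefore may not describe an mRNA that ends at the stem-loop. Hist2h3c1 also overlaps Gm20634 on the same strand in GENCODE. The 10 members at 0 were Hist1h2aa, Hist1h2ao, Hist1h2ap, Hist1h2bq, Hist1h2br, Hist1h4m, Hist2h2aa1, Hist2h2aa2, Hist2h3c1 and Hist2h3c2.

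**Figure D1:**
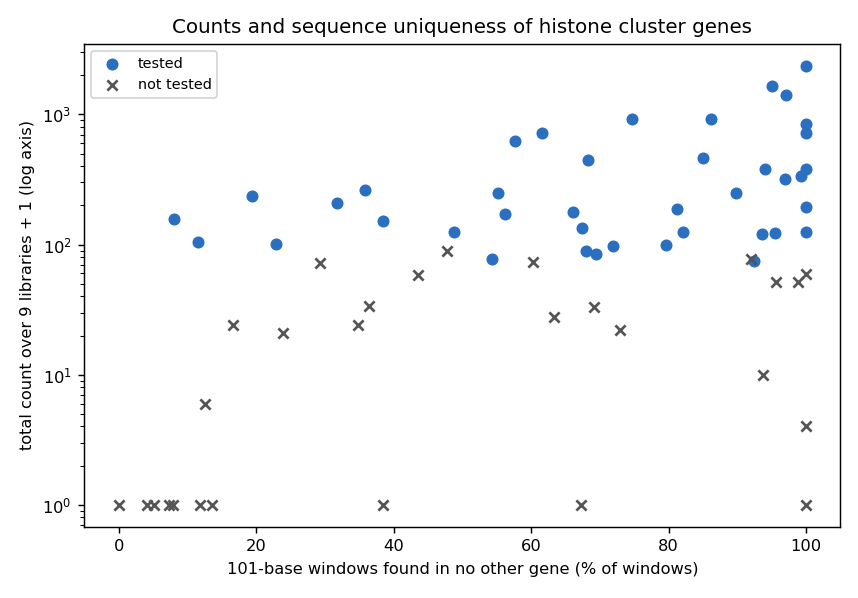
Each point is 1 of the 68 histone cluster genes, with the percent of its 101-base windows that occur in no other gene on the x axis and its total count over the 9 libraries plus 1 on a log y axis. The 10 members at 0 counts lie along the bottom, 7 of them under 20% unique, while Hist1h4d, the member with the most counts, is at 100%.

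The longest annotated coding sequence of each member was compared. It was identical to that of another member in 8 members, in the pairs Hist1h2ao and Hist1h2ap, Hist1h2bq and Hist1h2br, Hist1h4m and Hist1h4n, and Hist2h2aa1 and Hist2h2aa2. Of these 8, 7 had no counts, and Hist1h4n was the exception. Hist2h3c1 was compared by 546 bases and Hist2h3c2 by 411, so the comparison cannot show whether these 2 share a shorter coding sequence. For a member at 0, the limit that a count of 0 allows, 3 counts, was 0.603 to 1.30 CPM per library. This limit covers counting error only and reads that map to 1 place only, so it says little of the transcript level of these copies. Hist1h2aa, which encodes a testis-specific H2A, was at 0 although all of its windows were unique. The 18 other untested members had 3 to 89 counts in all. The 5 with the most were Hist1h2ab with 89, Hist1h2bh with 77, Hist1h2bj with 72, Hist1h2bk with 71 and Hist1h1a with 58 counts. The tested members with the fewest had 74. By family, 4 of 6 H1, 6 of 18 H2A, 11 of 19 H2B, 8 of 12 H3 and 11 of 13 H4 members were tested. Of the 40, 23 reached the level of the filter, 3.51 CPM, in every library, and the other 17 passed it through some libraries only. Of the members called below, Hist1h1b reached it in 3 R848, 3 IFN-α and 1 combined library, and Hist2h2be and Hist2h3b in 2 R848, 3 IFN-α and 0 combined libraries.

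Counts were concentrated in few members. The 6 with the highest mean CPM, Hist1h4d, Hist1h1c, Hist1h1e, Hist1h2bc, Hist1h4c and Hist3h2a, held 47.9% of all histone counts. Per kilobase of GENCODE transcript, Hist1h4d had the highest level, at 73.5 CPM per kb over the 9 libraries, followed by Hist2h2bb at 66.8, Hist1h4h at 54.1, Hist1h4c at 39.1 and Hist1h1c at 37.5. This order depends on the annotation, and that used for the deposited counts is not stated in the sources at hand. RefSeq transcripts are shorter for Hist1h4d, Hist1h4c and Hist1h1c but longer for Hist2h2bb. With them, Hist1h4d was at 208 CPM per kb. Hist2h2bb was at 51.7 CPM per kb, below Hist1h4c at 85.4 and Hist1h1c at 80.7. The order also depends on the uncounted reads that map to several places. Per kilobase of unique windows, a scale chosen after seeing the data, Hist1h3h was highest at 161, from 8% of its transcript. Hist1h4n at 95.9, Hist1h4h at 87.8, Hist1h4k at 83.2 and Hist1h2ai at 80.6 were also above Hist1h4d at 73.5. This scale takes single windows although the reads were paired, so it can overstate members with few unique windows. The SE of a log2 fold change had a median of 0.29, 0.28 and 0.29 over the 40 tested members in the 3 comparisons.

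A member was called where its adjusted p was under 0.05 (edgeR quasi-likelihood F test, Benjamini-Hochberg adjustment over all 11002 genes tested). The 3 comparisons share libraries and are given side by side. Between R848 and IFN-α, 7 of 40 members were called, or 17.5%, against a background of 37.4% of all genes tested. None was higher and 7 were lower with R848, against 18.4% and 19.0% of all genes. Between both agents and R848, 6 were called, 3 higher and 3 lower with both, against 35.9% of all genes, 19.2% higher and 16.7% lower. On library totals alone, the split of that comparison was 1 higher and 7 lower. Between both agents and IFN-α, 6 were called, 0 higher and 6 lower with both, against 33.2% of all genes, 18.5% higher and 14.7% lower. Of these 6, Hist1h1b, Hist2h2be and Hist2h3b passed the filter without the combined group. Over all 3 groups at once, 9 members differed, against 50.3% of all genes. In all, 11 of 40 members were called in at least 1 pairwise comparison, against 55.1% of all genes tested, and 29 in none. At an unadjusted p under 0.05 the members numbered 13, 7 and 14 in the 3 pairwise comparisons.

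Lower levels go with fewer calls among all genes as well. Of genes with a mean of at least 20 CPM, 50.9%, 47.1% and 44% were called in the 3 comparisons, and of the 9 histone members at that level 4, 3 and 3 were. Of genes below it, 23.1%, 23.9% and 21.6% were called, and of the 31 members below it 3 in each comparison. The median log2 fold change of the tested members was −0.23 between R848 and IFN-α, where that of all genes was 0.02. It was −0.03 between both agents and R848, as over all genes, and −0.30 between both agents and IFN-α, where that of all genes was −0.01. Values below 0 were found in 28 and 32 of the 40 in the first and the last of these comparisons.

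**Figure D2:**
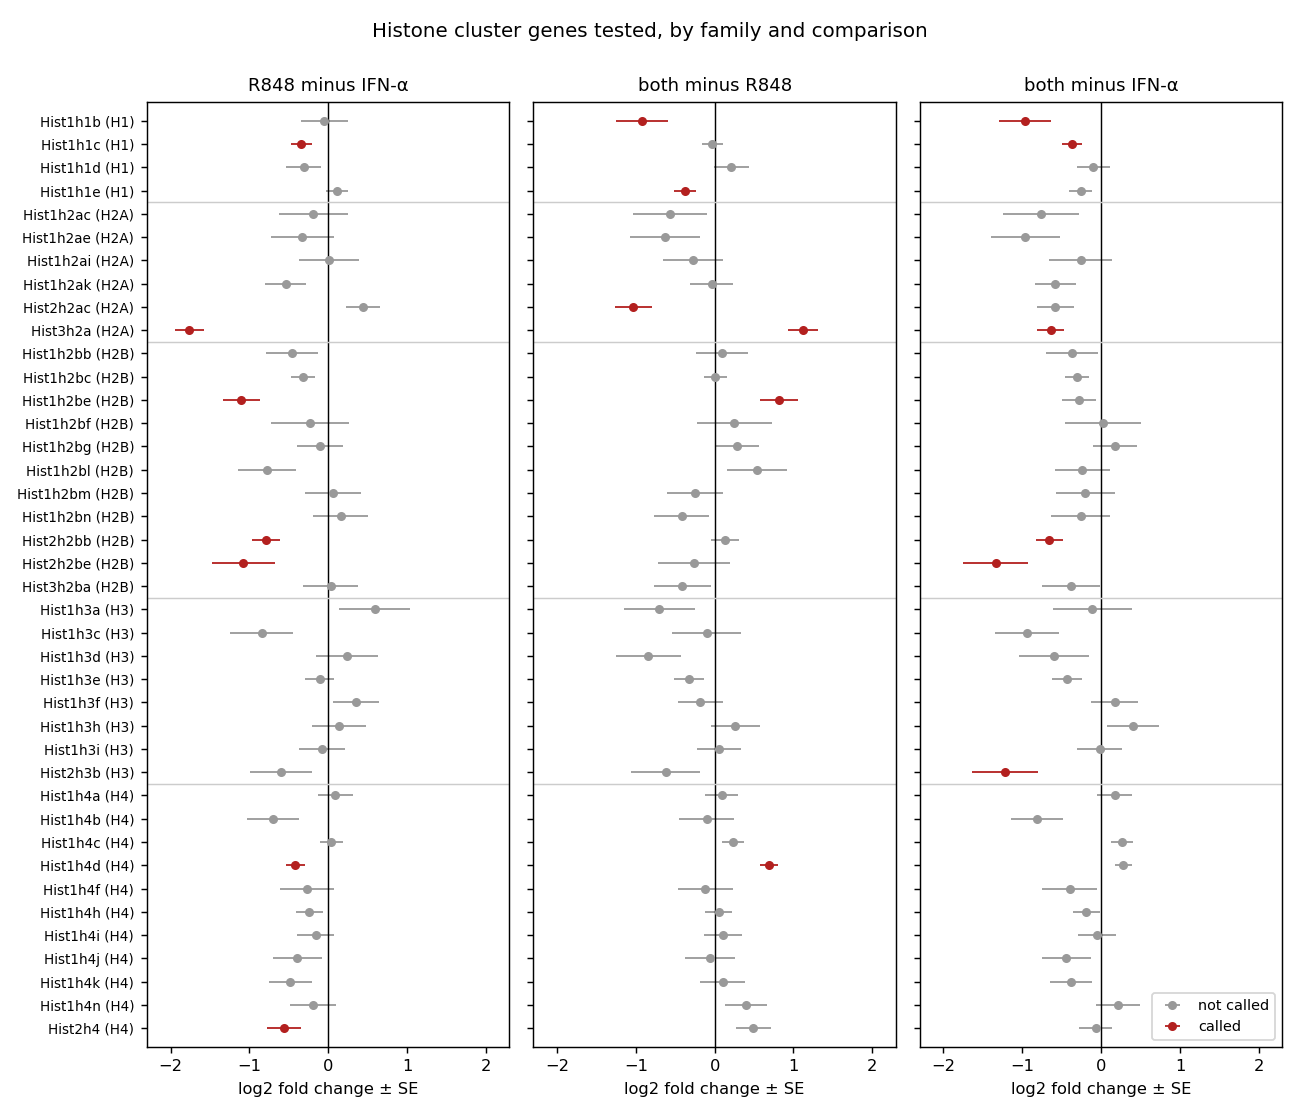
The log2 fold change and its SE are plotted for the 40 tested members, ordered by family, in 1 panel per comparison, with called members in red. The 7 called members of the left panel and the 6 of the right panel lie to the left of 0, and those of the middle panel lie on both sides.

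Summed over all 68 members, the level was 586, 567 and 475 CPM in the 3 R848 libraries, 702, 594 and 714 CPM with IFN-α, and 557, 570 and 601 CPM with both agents. The R848 and IFN-α libraries did not overlap, and the combined libraries overlapped both other groups. The means were 543 ± 59.3, 670 ± 66.5 and 576 ± 22.3 CPM. The combined libraries had TMM factors of 0.831 to 0.892, against 0.954 to 1.17 in the others, so differences from them depend on scaling. On library totals alone the log2 ratio of both agents to R848 turned from 0.09 to −0.30, while the median of all genes moved to −0.42.

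The families were summed separately. The H2A members summed to 70.3, 54.4 and 47.7 CPM in the R848 libraries, 94.1, 79.7 and 101 CPM with IFN-α and 57.1, 54.0 and 68.4 CPM with both. Each IFN-α library was above every other library in this sum. That order rests on Hist3h2a: without it the H2A sums were 54.4, 43.3 and 33.5 CPM in the R848 libraries, 53.4, 39.1 and 43.5 CPM with IFN-α and 31.0, 27.7 and 33.2 CPM with both, so that the single agents overlapped and the combined libraries were below both. The H2B members summed to 105 ± 12, 141 ± 7.99 and 109 ± 6.36 CPM in the same order, again with each IFN-α library above all others. Without Hist2h2bb they were 84.5 ± 8.18, 106 ± 3.85 and 87.6 ± 6.77 CPM, with the same separation. The H1 members summed to 130 ± 6.56, 143 ± 13.8 and 115 ± 3.18 CPM, where the combined group was lowest. The H3 members summed to 59.6 ± 8.53, 62.0 ± 7.58 and 50.2 ± 0.833 CPM. The H4 members summed to 191 ± 24.3, 232 ± 34.7 and 242 ± 10.9 CPM, and the R848 group was lowest. Without Hist1h4d they were 128 ± 18.1, 148 ± 27.2 and 139 ± 17.1 CPM, and all 3 groups overlapped. These sums without 1 member were chosen after seeing the data. No p is given for these sums.

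**Figure D3:**
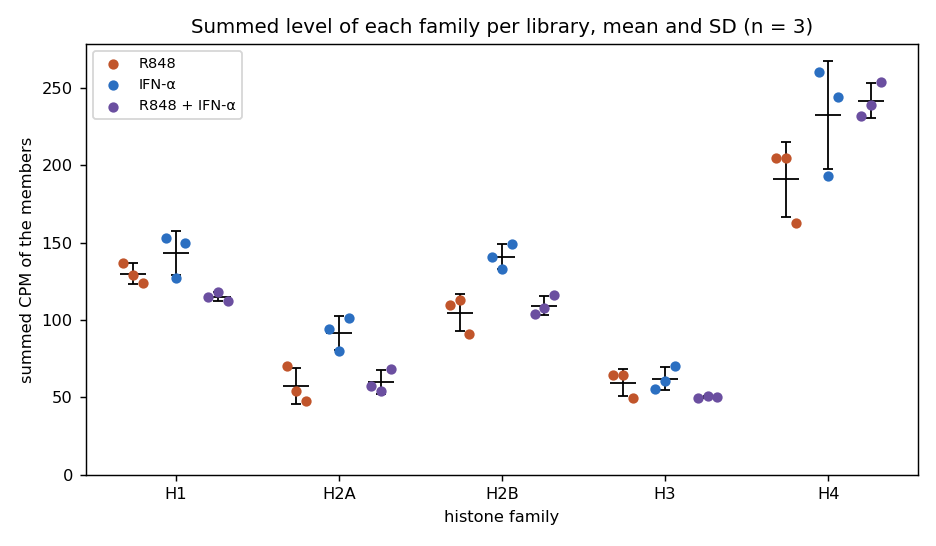
Points are the summed CPM of the members of each histone family in each of the 9 libraries, with the mean and SD of each group of 3. The IFN-α libraries stand above the others for H2A and H2B, and the combined libraries lie low for H1 and H3 and high for H4. Without Hist3h2a the H2A sums of the R848 and IFN-α libraries overlap, and without Hist1h4d the H4 sums of all groups do.

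Among the linker histones, Hist1h1b and Hist1h1e were lower with both agents than with R848, and Hist1h1b and Hist1h1c were lower with both than with IFN-α. Hist1h1b was at 7.81, 7.91 and 8 CPM in the R848 libraries, 6.58, 7.97 and 9.86 CPM with IFN-α, and 2.61, 2.16 and 6.23 CPM with both. All 3 combined libraries were below the rest, with replicate 3 near them. The log2 fold change was −0.92 ± 0.33 (SE; adjusted p = 0.0271) against R848 and −0.97 ± 0.33 (adjusted p = 0.0232) against IFN-α, and −0.05 ± 0.30 (adjusted p = 0.914) between the single agents. Without combined replicate 3 these became −1.70 and −1.75. The first was lost without R848 replicate 2 (adjusted p = 0.0526), R848 replicate 3 (0.0563) or combined replicate 1 (0.119) or 2 (0.117). The second was lost without IFN-α replicate 3 (0.127) or combined replicate 1 (0.104) or 2 (0.103). Neither passed in DESeq2's Wald test (0.0623 and 0.0507).

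Hist1h1c was at 60.2, 52.8 and 49.5 CPM in the R848 libraries, 77.8, 60.5 and 67.7 CPM with IFN-α and 56.8, 44.9 and 56.3 CPM with both. Every IFN-α library was above every other library, the lowest of them narrowly. It was lower by a log2 fold change of −0.34 ± 0.13 with R848 than with IFN-α (adjusted p = 0.0391) and by −0.37 ± 0.13 with both than with IFN-α (adjusted p = 0.0295), and did not differ past the threshold between both and R848 (−0.03, adjusted p = 0.889), although on library totals alone it was called there (−0.42, adjusted p = 0.016). The first call was lost in 7 of 19 alternative fits, among them those without R848 replicate 2 (0.0941) or 3 (0.143) or IFN-α replicate 1 (0.212) or 3 (0.0755). The second was lost in 4, without IFN-α replicate 1 (0.171) or 3 (0.0632), without combined replicate 2 (0.155), and in DESeq2, and was −0.68 on library totals alone.

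Hist1h1e was at 55.9, 56.3 and 54.2 CPM in the R848 libraries, 55.0, 42.7 and 56.0 CPM with IFN-α and 39.6, 54.0 and 37.0 CPM with both. Against R848 the fold change with both was −0.38 ± 0.14 (adjusted p = 0.0397), with 1 combined library just under the R848 range. The call was lost without R848 replicate 2 (0.0858) or 3 (0.0582), without combined replicate 1 (0.14) or 3 (−0.25, adjusted p = 0.27), and in DESeq2 (0.102), and the value was −0.76 on library totals alone. Hist1h1d was at 10.6, 13.1 and 12.7 CPM on average in the 3 groups and was not called. Hist1h1t, the testis subtype, had 3 counts in all.

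Among the core histones, Hist3h2a, an H2A gene of the Hist3 cluster, had the largest difference of any tested member. It was at 15.9, 11.1 and 14.2 CPM in the R848 libraries, 40.7, 40.6 and 57.9 CPM with IFN-α and 26.1, 26.3 and 35.2 CPM with both. The groups did not overlap, and the combined libraries lay between those of the single agents. The log2 fold change was −1.76 ± 0.18 between R848 and IFN-α (adjusted p = 2.9e-09), 1.12 ± 0.19 between both and R848 (adjusted p = 2.46e-05) and −0.64 ± 0.17 between both and IFN-α (adjusted p = 0.00318). The first pair held in all 19 alternative fits, and the last was lost without IFN-α replicate 3 (−0.44, adjusted p = 0.0697). On library totals alone the difference between both and R848 was 0.72. All windows of Hist3h2a were unique. It overlaps Trim17 on the same strand in GENCODE, so its counting depends on the annotation used. The H2B gene of the same cluster, Hist3h2ba, was at 4.67, 4.64 and 3.56 CPM on average and was not called in any comparison.

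Hist2h2ac, an H2A gene of the Hist2 cluster, differed in another direction. It was at 24.0, 16.1 and 13.6 CPM in the R848 libraries, 15.1, 12.3 and 12.4 CPM with IFN-α and 8.96, 9.93 and 8.04 CPM with both. The combined libraries were below all others, and those of the single agents overlapped. The fold change was −1.03 ± 0.23 with both against R848 (adjusted p = 0.00058), which held in all 19 alternative fits, and −0.58 ± 0.24 against IFN-α (adjusted p = 0.0661). The 4 remaining tested H2A members, Hist1h2ac, Hist1h2ae, Hist1h2ai and Hist1h2ak, had group means of 1.71 to 11.2 CPM and were not called.

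Hist2h2be, the H2B gene that starts 238 bases away on the other strand, has been described in mouse as an H2B of olfactory neurons. It was at 1.45, 5.38 and 3.55 CPM in the R848 libraries, 10.8, 6.16 and 5.09 CPM with IFN-α and 2.24, 1.73 and 3.82 CPM with both. All IFN-α libraries were above the combined ones, while the R848 libraries overlapped both other groups. It was lower with R848 than with IFN-α (−1.08 ± 0.40, adjusted p = 0.0334) and with both than with IFN-α (−1.34 ± 0.41, adjusted p = 0.0126). These levels rest on 34, 61 and 29 counts per group, and the gene passed the low-count filter through its IFN-α libraries and 2 R848 libraries. The first call was lost without R848 replicate 1 (−0.71, adjusted p = 0.146) or 3 (0.0621), IFN-α replicate 1 (−0.71, adjusted p = 0.258) and in DESeq2. The second was lost without IFN-α replicate 1 (0.128) or combined replicate 1 (0.0517) or 2 (0.0551).

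The promoter sequence shared by the 2 genes of this pair is printed above. Summed over each group, Hist2h2ac had 5.29 times the counts of Hist2h2be with R848, 1.84 times with IFN-α and 3.00 times with both. Without R848 replicate 1, which held 83 and 5 counts of the pair, the first of these was 3.34 times. Whether this ratio differs between groups was not tested. Hist2h2ac has 94.0% unique windows and Hist2h2be 100%. Of the 13 divergent pairs, 5 had both members tested, and in the other 4 of these no member was called.

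Among the H2B genes, Hist2h2bb and Hist1h2be also differed. Hist2h2bb was at 24.0, 21.2 and 15.1 CPM in the R848 libraries, 34.1, 30.8 and 39.1 CPM with IFN-α and 23.9, 17.7 and 23.3 CPM with both. The IFN-α libraries were above all others, and the R848 and combined ranges overlapped. The fold change was −0.79 ± 0.18 between R848 and IFN-α (adjusted p = 0.000504) and −0.66 ± 0.17 between both and IFN-α (adjusted p = 0.00355), and both calls held in all 19 alternative fits. It was 0.13 ± 0.18 between both and R848 (adjusted p = 0.634). Hist2h2bb overlaps the predicted gene Gm42743 on the same strand.

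Hist1h2be was at 7.52, 7.91 and 5.63 CPM in the R848 libraries, 15.1, 14.1 and 15.9 CPM with IFN-α and 11.2, 16.4 and 10.7 CPM with both. The R848 libraries were below all others, and the IFN-α and combined ranges overlapped. It was lower with R848 than with IFN-α (−1.1 ± 0.24, adjusted p = 0.000345), which held in all 19 alternative fits, and higher with both than with R848 (0.82 ± 0.24, adjusted p = 0.00822). The latter was lost without combined replicate 2 (adjusted p = 0.0619) and on library totals alone (0.43, adjusted p = 0.143). In GENCODE the annotated span of Hist1h2be overlaps that of Hist1h1e on the same strand, so counts of this pair depend on the annotation.

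Hist1h2bc, an H2B gene without a stem-loop match in its annotated transcript, was at 31.5, 29.1 and 29.3 CPM in the R848 libraries, 35.6, 38.4 and 38.5 CPM with IFN-α and 26.9, 25.5 and 36.0 CPM with both. It was not called, with fold changes of −0.32 (adjusted p = 0.0955), 0.01 (adjusted p = 0.961) and −0.31 (adjusted p = 0.118). Hist1h2bb, Hist1h2bf, Hist1h2bg, Hist1h2bl, Hist1h2bm and Hist1h2bn had group means of 2.39 to 10.2 CPM and were not called either.

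Of the 8 tested H3 members, 1 was called. Hist2h3b was at 3.47, 5.06 and 1.78 CPM in the R848 libraries, 4.65, 6.88 and 4.13 CPM with IFN-α and 1.87, 2.59 and 2.21 CPM with both. The IFN-α libraries were above the combined ones, and the fold change between them was −1.22 ± 0.42 (adjusted p = 0.0255). It rests on 44 and 22 counts, in a gene with 22.9% unique windows that passed the low-count filter through its IFN-α libraries and 2 R848 libraries. The call was lost without IFN-α replicate 2 (0.152), combined replicate 1 (0.0785) or 3 (0.0918), and in DESeq2 (0.0732). Hist1h3a, Hist1h3c, Hist1h3d, Hist1h3e, Hist1h3f, Hist1h3h and Hist1h3i had group means of 2.24 to 24.6 CPM. Their fold changes between R848 and IFN-α ran from −0.84 in Hist1h3c to 0.59 in Hist1h3a.

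Of the 11 tested H4 members, Hist1h4d and Hist2h4 were called. Hist1h4d was at 69.5, 64.5 and 56.0 CPM in the R848 libraries, 89.8, 75.7 and 88.1 CPM with IFN-α and 105, 109 and 95.3 CPM with both. The 3 groups did not overlap, the R848 libraries being lowest and the combined ones highest. The fold change was −0.42 ± 0.12 between R848 and IFN-α (adjusted p = 0.00437), 0.69 ± 0.11 between both and R848 (adjusted p = 1.02e-05) and 0.28 ± 0.11 between both and IFN-α (adjusted p = 0.055). The called values were lost in 1 of 19 alternative fits, on library totals alone, where they were −0.34 (adjusted p = 0.0537) and 0.31 (adjusted p = 0.0519).

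Hist2h4 was at 12.2, 8.23 and 10.7 CPM in the R848 libraries, 19.0, 11.6 and 15.6 CPM with IFN-α and 14.2, 12.5 and 16.3 CPM with both. Its R848 and IFN-α ranges overlapped, and its fold change of −0.56 ± 0.22 passed narrowly (adjusted p = 0.0498). The call was lost in 14 of 19 alternative fits, among them those without IFN-α replicate 1 (0.253) or 3 (0.114), R848 replicate 2 (0.195) or 3 (0.0817), or combined replicate 1 (0.059), 2 (0.056) or 3 (0.0557). Hist1h4c was at 32.7, 30.7 and 28.1 CPM in the R848 libraries, 31.0, 26.8 and 31.2 CPM with IFN-α and 34.0, 38.0 and 35.8 CPM with both. The combined libraries were the highest, but no comparison passed, the nearest being that with IFN-α (0.27, adjusted p = 0.154). Hist1h4a, Hist1h4b, Hist1h4f, Hist1h4h, Hist1h4i, Hist1h4j, Hist1h4k and Hist1h4n had group means of 3.69 to 28.1 CPM and were not called.

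**Figure D4:**
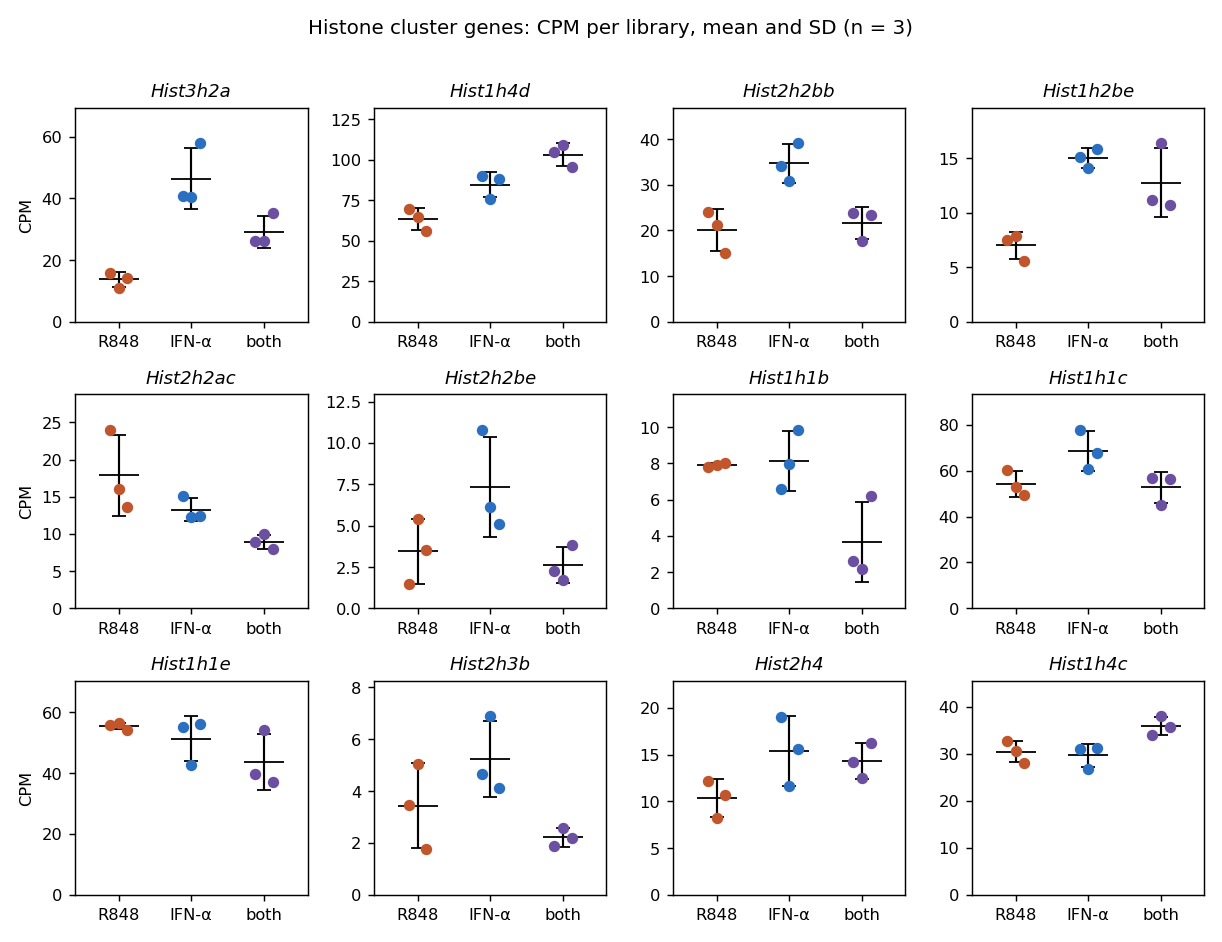
Points are the CPM of 12 members in each library, with the mean and SD of each group of 3. Hist3h2a and Hist1h4d separate all 3 groups, Hist2h2bb is high with IFN-α alone, and Hist2h2ac is lowest with both agents.

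Of 28 tested members with a stem-loop match 7 were called in at least 1 comparison, and of 12 without a match 4 were. Of these 4, Hist1h1b and Hist2h2bb have 0 annotated bases after the stop codon, Hist2h3b 37 and Hist2h2be 2192. The lack of a match can thus reflect a short annotation. Of 18 tested members with at least 200 annotated bases after the stop codon 7 were called, and of 22 with fewer 4 were. Among all genes tested, 55.1% were called in at least 1 comparison. These counts are a description, with no test.

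Among the replacement histones, made outside the clusters, H3f3b differed in all 3 comparisons. H3f3b, which encodes the replacement form of H3, was at 434, 465 and 485 CPM in the R848 libraries, 730, 718 and 773 CPM with IFN-α and 1360, 1280 and 1120 CPM with both. The groups did not overlap. It was lower with R848 than with IFN-α (−0.68 ± 0.086, adjusted p = 8.9e-08) and higher with both than with R848 (1.44 ± 0.086, adjusted p = 1.1e-14) and than with IFN-α (0.76 ± 0.085, adjusted p = 1.61e-08). H3f3a, which encodes the same protein, was at 237 ± 21.5, 198 ± 18.7 and 201 ± 20.2 CPM, and was called higher with R848 than with IFN-α (0.26 ± 0.10, adjusted p = 0.0412). That call was lost without R848 replicate 2 or 3 or IFN-α replicate 1 or 2.

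Of 9 tested replacement histone genes, 1 was higher and 3 lower with R848 than with IFN-α, 2 and 2 with both than with R848, and 1 and 1 with both than with IFN-α. Among all genes tested, 37.4%, 35.9% and 33.2% were called in the same comparisons. Cenpa, the H3 form of centromeres, was at 1.87 ± 1.09, 6.23 ± 0.373 and 1.14 ± 0.583 CPM. It reached the filter level of 3.51 CPM in the 3 IFN-α libraries and in no other, so it entered the test through the group where it was high. Its fold changes were −1.70 ± 0.42 between R848 and IFN-α (adjusted p = 0.00163) and −2.24 ± 0.46 between both and IFN-α (adjusted p = 0.000242). With both against R848, H1f0, the linker histone of non-dividing cells, was lower (−0.49, adjusted p = 0.00291), as was H2afz, which encodes H2A.Z (−0.36, adjusted p = 0.016), and H2afy, which encodes macroH2A, was higher (0.39, adjusted p = 0.0135). H2afz was lost without R848 replicate 2 or combined replicate 1 or 2, and H2afy on library totals alone and with upper-quartile factors.

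Of the genes that transcribe and process histone mRNA, 17 were tested, and 6, 6 and 4 of them were called in the 3 comparisons, against 37.4%, 35.9% and 33.2% of all genes. Of these, 1 was higher and 5 lower with R848 than with IFN-α, 3 and 3 with both than with R848, and 1 and 3 with both than with IFN-α. This last total of 4 was 1 or 2 in each fit that left out 1 IFN-α or combined library. Slbp was at 11.6 ± 2.97, 10.5 ± 2.20 and 14.7 ± 0.426 CPM in the R848 libraries, IFN-α and both, and was not called. Npat, the coactivator of histone gene transcription, was at 46.5 ± 7.04, 60.4 ± 6.75 and 48.7 ± 8.68 CPM and was lower with R848 than with IFN-α (−0.38 ± 0.14, adjusted p = 0.0343), which was lost without R848 replicate 1 or IFN-α replicate 2 or 3.

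Lsm10 and Lsm11, the subunits particular to the U7 ribonucleoprotein, went opposite ways between the single agents. Lsm10 was at 7.44, 12.8 and 12.9 CPM on average (R848 against IFN-α, −0.77, adjusted p = 0.0107), and Lsm11 at 13.7, 6.33 and 10.5 CPM (1.1, adjusted p = 0.000359). Lsm10 was lost without R848 replicate 2. Cpsf2 and Cpsf3, subunits of the complex that cuts pre-mRNA ends, were both lower with R848 than with IFN-α, at −0.57 (adjusted p = 7.41e-05) and −0.39 (adjusted p = 0.021), the latter lost without R848 replicate 2 or IFN-α replicate 1 or 3. Pou2f1, which encodes the octamer-binding factor Oct-1, was at 20.0 ± 2.84, 29.2 ± 4.87 and 20.0 ± 1.55 CPM and was lower with R848 (−0.54, adjusted p = 0.0114) and with both (−0.53, adjusted p = 0.0161) than with IFN-α. These were lost without IFN-α replicate 1, the first also without R848 replicate 3 and the second without combined replicate 2 or 3. With both against R848, Snapc4 (−1.08, adjusted p = 0.00971) and Ncbp2 (−0.61, adjusted p = 0.00173) were lower, and with both against IFN-α Casp8ap2 was lower (−0.40, adjusted p = 0.0372). Snapc4 was lost without combined replicate 1, and Casp8ap2 without IFN-α replicate 2 or 3 or any 1 of the combined libraries. The combined libraries had 2.24, 3.89 and 3.82 CPM of Snapc4, each under the filter level of 3.51 CPM on unscaled totals. Snapc4 thus entered the test through the other groups, where it was higher.

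Of 19 tested histone chaperones, 3 were higher and 2 lower with R848 than with IFN-α, 3 and 5 with both than with R848, and 1 and 2 with both than with IFN-α. The background over all genes was 37.4%, 35.9% and 33.2% called. The 8 calls of the second comparison were 5 without R848 replicate 3 and 13 on library totals alone. Daxx, a chaperone of the replacement H3, had the largest change among them. It was at 20.1 ± 5.15, 195 ± 5.45 and 328 ± 30.2 CPM, with fold changes of −3.27 ± 0.13 (adjusted p = 6.06e-19), 4.02 ± 0.13 (adjusted p = 2.82e-21) and 0.75 ± 0.11 (adjusted p = 1.1e-06). Hira, whose complex also deposits the replacement H3, was lower with both than with R848 (−0.86, adjusted p = 0.00199) and than with IFN-α (−0.72, adjusted p = 0.0127), the latter lost without IFN-α replicate 1 or combined replicate 2 or 3. Cabin1, a partner of Hira, was lower with R848 than with IFN-α (−0.86, adjusted p = 1.23e-05). Asf1b, the chaperone linked to dividing cells, was lower with both than with R848 (−1.43, adjusted p = 0.0255), at 1.28 against 3.79 CPM. This call was lost without R848 replicate 3 or combined replicate 1 or 2. The combined libraries had 0.747, 1.3 and 1.81 CPM of Asf1b, under the filter level of 3.51 CPM. Asf1b thus entered the test through the other groups, of which R848 was the higher (2.02 CPM with IFN-α). Set was lower with both than with R848 (−0.67, adjusted p = 5.29e-06). Set (0.57, adjusted p = 4.39e-05) and Nap1l4 (0.58, adjusted p = 2.62e-05) were higher with R848 than with IFN-α.

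Replication-dependent histone mRNA is tied to DNA synthesis, and the genes of DNA replication were mixed. Of 23 tested, 1 was higher and 3 lower with R848 than with IFN-α, 4 and 3 with both than with R848, and 1 and 2 with both than with IFN-α. The share of all genes called was 37.4%, 35.9% and 33.2% in these comparisons. The 7 calls of the second comparison were 4 without combined replicate 1, and the 3 of the last were 6 without R848 replicate 1 and 12 on library totals alone. Their summed level was 279 to 311 CPM in the R848 libraries, 395 to 446 with IFN-α and 332 to 372 with both. Between the single agents, the difference in this sum lay largely in Pcna and Mcm6, whose levels are given next. Of the 23 tested genes, 19 were not called in that comparison. Pcna, the sliding clamp, was at 95.0 ± 4.44, 134 ± 13.0 and 115 ± 4.53 CPM and was lower with R848 than with IFN-α (−0.49 ± 0.10, adjusted p = 0.00019). Mcm6, a helicase subunit, was at 15.2 ± 2.93, 80.1 ± 3.93 and 42.6 ± 6.91 CPM (R848 against IFN-α, −2.40 ± 0.16, adjusted p = 6.69e-14), whereas Mcm2 of the same complex was at 12 ± 0.386, 14.5 ± 5.98 and 10.1 ± 0.978 CPM and was not called. Cdt1, which loads that helicase, was at 14.4 ± 4.51, 14.2 ± 0.585 and 44.4 ± 2.83 CPM and was higher with both than with R848 (1.63, adjusted p = 6.07e-09). With both against R848, Cdk2 (−1.11, adjusted p = 0.000339) and Ccna2, the S-phase cyclin A (−1.08, adjusted p = 0.015), were lower. Ccna2 was lost there without R848 replicate 3 or combined replicate 1. The combined libraries had 1.49, 3.45 and 3.62 CPM of Ccna2, each under the filter level of 3.51 CPM on unscaled totals. Ccna2 thus entered the test through the other groups, where it was higher.

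Of 7 tested mitosis genes, 1 was higher and 0 lower with R848 than with IFN-α, 0 and 2 with both than with R848, and 2 and 1 with both than with IFN-α. The second total was 4 without combined replicate 3, and the last was 1 without IFN-α replicate 3. The share of all genes called was 37.4%, 35.9% and 33.2% in the 3 comparisons. Mki67, a marker of cycling cells, had the largest differences. It was at 23.4, 21.5 and 20.1 CPM in the R848 libraries, 1.94, 4.35 and 1.91 CPM with IFN-α and 6.35, 6.91 and 7.64 CPM with both, and the groups did not overlap. It was higher with R848 than with IFN-α (2.98 ± 0.28, adjusted p = 1.91e-10), lower with both than with R848 (−1.61 ± 0.22, adjusted p = 6.95e-07) and higher with both than with IFN-α (1.37 ± 0.33, adjusted p = 0.00169). Of the IFN-α libraries, only replicate 2 reached the filter level of 3.51 CPM for Mki67. Cdk1 was lower with both than with R848 (−0.92, adjusted p = 0.0142) and than with IFN-α (−0.82, adjusted p = 0.0379). The first was lost without combined replicate 1 and the second without IFN-α replicate 3 or combined replicate 1 or 2. Tpx2 was higher with both than with IFN-α (1.09, adjusted p = 0.0383) but this was lost in 10 alternative fits, among them those without IFN-α replicate 2 or 3 or combined replicate 2 or 3. The IFN-α libraries had 3.48, 1.81 and 2.23 CPM of Tpx2, under the filter level of 3.51 CPM. Tpx2 thus entered the test through the other groups. Top2a was at 4.96 ± 3.40, 4.41 ± 0.809 and 3.71 ± 0.672 CPM and was not called.

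**Figure D5:**
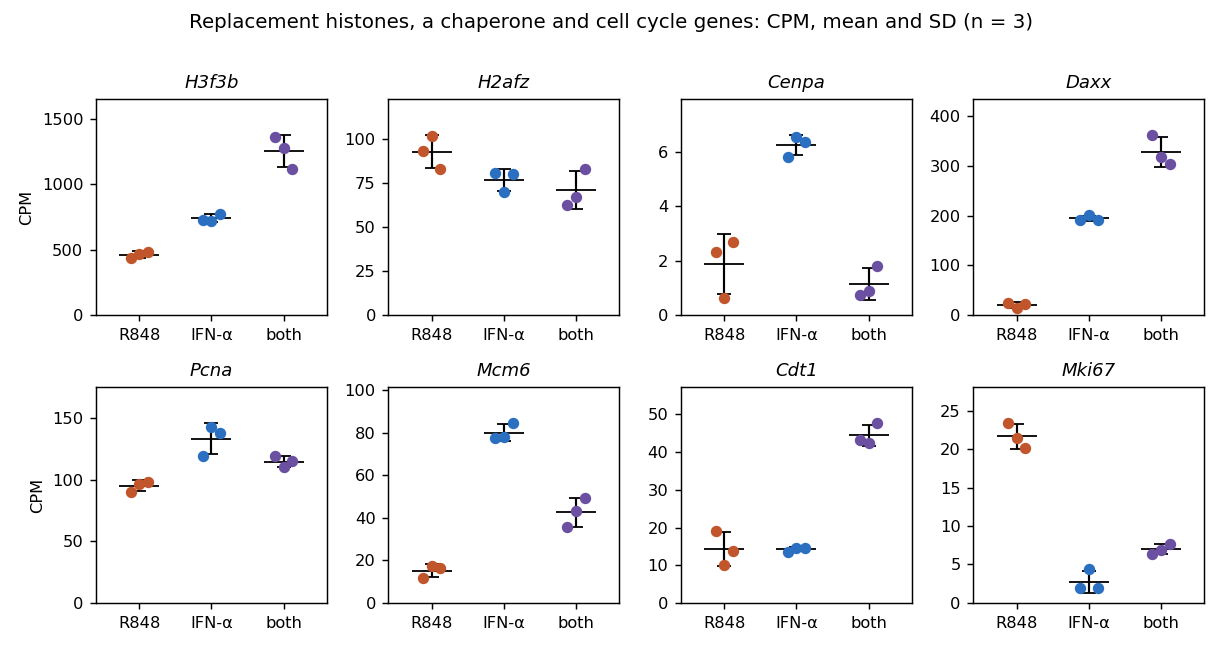
Points are the CPM of 8 genes outside the clusters in each library, with the mean and SD of each group of 3. H3f3b and Daxx are highest with both agents, Mcm6 and Cenpa with IFN-α, Cdt1 with both and Mki67 with R848.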

How the data were processed

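The submitters' processing notes name STAR 2.5.1, Trimmomatic 0.33, CASAVA 1.8.2 and DESeq2, and the build mm10. The annotation is not stated there. The authors deposited whole-number counts per gene, unstranded and for each strand, with no normalization. Per the labels' protocols, libraries were strand-specific and depleted of ribosomal RNA, and reads were paired with 101 cycles. The reverse-strand counts were used, since forward-strand counts were 1.09% to 1.5% of both strands, and rows that name no gene were left out (reads in no gene made up 39.3% to 44.4% of read pairs).

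Genes were filtered with filterByExpr (minimum count 10, minimum total 15), scaled with TMM and fitted as group means over all 9 libraries (R 4.3.3, limma 3.58.1, edgeR 4.0.16; robust quasi-likelihood F test, Benjamini-Hochberg adjusted p under 0.05 over 11002 genes; biological coefficient of variation 0.0955). The approximate SE is the size of the log2 fold change over the square root of F. The fit was checked on simulated counts. DESeq2 1.42.0 was an alternative, beside other scalings, filters, unstranded counts, a replicate block and leaving out each library. Library depth sets the precision: 3 counts equal 0.603 to 1.30 CPM.

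The members, the gene lists and the alternatives were chosen with earlier results of these data known, so the list counts carry no test. The rule for names gave every tested member at least once, values per library for called members and for the 6 of highest level, the 5 untested members with the most counts, and up to 4 called genes per other list and comparison with 10 genes given whatever they showed. Some of the genes that this rule picks are not reported here. The labels do not say whether replicates came from separate cultures, so p-values measure only how these libraries vary, and that may be technical. Within groups, replicates differed by more than sampling noise (chi-square per degree of freedom 1.92 to 6.27 over genes without Rn45s). Sequence features came from GENCODE release 21 transcripts and, for 67 of 68 members matched by symbol or synonym, from RefSeq on GRCm38.p6. Protein sequences were not used here.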

Additional observations from a re-analysis of the deposited data

Results flagged for a closer look

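Reads on the strand opposite to the transcript were looked at because no comparison above uses them. Members are given that had more than 3 such counts, the limit a count of 0 allows, and a forward share above 1.5%, the highest share of any library over all genes. Over the 9 libraries, Hist2h2ab had 52 such forward-strand counts against 51 on its own strand, with 22 in the R848 group, 16 with IFN-α and 14 with both. The annotation places the antisense gene Gm15444 over it. Hist2h2ac, on the opposite strand, ends at chr3:96220361, near the end of Hist2h2ab at chr3:96220308. Hist2h2ac had 10 forward-strand counts (2.57% of both strands), Hist1h2ae 5 (5.62%), Hist2h2be 4 (3.12%) and Hist1h2ak 4 (1.59%). Antisense genes are also annotated over Hist2h2ac (Gm44492), Hist1h2ae (Gm44394) and Hist1h2ak (Gm44454), but not over Hist2h2be. Hist1h1c with 15, Hist1h1e with 11, Hist1h2bc with 11, Hist3h2a with 7, Hist1h4c with 5 and Hist1h4h with 4 had shares of 0.544% to 1.17%. No cause was tested.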

How the results depend on the processing

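Calls of Hist3h2a between R848 and each other group, of Hist2h2bb against IFN-α, of Hist1h2be between the single agents and of Hist2h2ac between both agents and R848 kept direction and threshold in all 19 alternative fits. Between R848 and IFN-α, 7 members were called, 4 on library totals alone (none of them outside the 7) and 4 in DESeq2's Wald test. Between both agents and R848, 6 were called (3 higher, 3 lower), 8 on library totals alone (1 higher, 7 lower) and 4 in DESeq2 (3 higher, 1 lower). Between both agents and IFN-α, 6 were called, 11 with upper-quartile factors, 18 on library totals alone and 3 in DESeq2. Over the 3 groups 9 differed, and 17 on library totals alone. Leaving out 1 library gave 5 to 8, 4 to 8 and 3 to 10 calls in the 3 pairwise comparisons (3 without IFN-α replicate 3 and 10 without R848 replicate 1 in the last) and 6 to 12 over the 3 groups. The summed log2 ratio of both agents moved from 0.09 to −0.30 against R848 and from −0.22 to −0.53 against IFN-α on library totals alone, where the median of all genes was 0.10, −0.42 and −0.32 in the 3 comparisons, so these members lay above that median in the first of the 2 and below it in the second. There the share of called genes that were higher with both fell to 19.1% and 21.7%, from 53.5% and 55.7%, and with upper-quartile factors to 37.5% and 44.8%. On library totals alone, values for both against R848 turned to 0 in Cabin1, −0.01 in Map2 and −0.12 in Pcna. The cause was not tested. Replicate numbers did not pair the libraries (same-number correlations of deviations from −0.10 to 0.06). With the replicate block, 7, 6 and 7 members were called in the pairwise comparisons and 8 over the 3 groups. Depth limits the lower members, 31 of 40 being under 20 CPM.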
